A study of Mus musculus with 17 samples.

Results

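Germinal centre (GC) B cells of the spleen were compared between mice carrying a knock-in of p52 (p52ki) and wild-type (WT) mice. RNA sequencing of sorted B cells had given 17 libraries in 6 groups, of naive, activated and GC B cells in each genotype, and the 5 GC libraries are described here: WT replicates 1, 3 and 4 and p52ki replicates 2 and 5. By its title, the series asks how p52 acts together with ETS1 when GCs form. The labels name the genotypes only as WT and p52Ki; they do not state the sequence change of the knock-in, the strain, the age or any immunisation of the mice. Of 55536 genes in the table of counts, 6664 had a mean of at least 20 CPM (counts scaled to a common library total) over the 5 libraries, and the 6227 of these with at least 1 count in every one of them form the set described. The demand for a count removed 437 genes, of which 11 were otherwise called higher and 39 lower in p52ki by the test given below. At the edge of the set, Hivep1, Shkbp1 and Tvp23b lay just inside with means of 20.017, 20.03 and 20.035 CPM, and Serpinb6a, Hist1h2bc and Gm26642 just outside with 19.991, 19.985 and 19.971 CPM.

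GCs are the sites in which B cells that have met antigen divide, mutate their antibody genes and compete for help from T cells. Division and mutation are known to take place mainly in the dark zone, and selection in the light zone, between which cells move back and forth. NF-kB is a family of paired transcription factor subunits; p52 is made by processing the precursor p100, the product of Nfkb2, and is the classical partner of RelB in the non-canonical pathway downstream of receptors such as BAFF-R and CD40. ETS1 belongs to the ETS family of transcription factors, which bind a short core sequence and are abundant in lymphocytes. Follicular B cells outside the GC are known for CCR7, CD23 and KLF2, all of which are low in GC cells.

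Totals of counts ran from 4067281 to 9936589 over the 5 libraries. Genes with a count numbered 18449 and 19135 in WT replicates 1 and 4, but 11232 in WT replicate 3 and 11390 and 13044 in p52ki replicates 2 and 5. Over the 6227 genes the rank correlation was 0.943 between WT replicates 1 and 4 but 0.637 and 0.716 between each of them and WT replicate 3, and 0.684 between the p52ki libraries; in the other groups it ran from 0.852 to 0.984. A level less than 10% of the median of the other 4 libraries was found for 281 genes in WT replicate 3, 288 in p52ki replicate 2 and 97 in p52ki replicate 5, against 12 and 3 in WT replicates 1 and 4. Ribosomal protein genes took 2.483% to 5.155% of counts in WT and 6.087% and 4.864% in p52ki, and the part of sparseness and of this share in the results below was not tested. All 13 B cell markers were detected in every library. Of the markers of other cell types, 12 of 18 T cell markers, 6 of 11 NK cell markers, 10 of 20 macrophage and dendritic cell markers and 10 of 11 neutrophil markers had no count in either p52ki library. The numbers of these lists with no count in any WT library were 1, 1, 2 and 8. The summed levels of the lists in p52ki replicates 2 and 5 were 79.94 and 72.012 CPM for T cells against 52.128 to 147.94 in WT, 59.834 and 5.4132 for NK cells against 0.61087 to 10.435, and 100.53 and 167.32 for macrophages and dendritic cells against 86.541 to 112.33. The neutrophil sum was 1.4535 and 0.32807 CPM against at most 1.3044 in WT. Lck was the largest part of the T cell sum, at 114.3, 39.1 and 122 CPM in WT and 31.01 and 66.27 CPM in p52ki. Cd3e, Cd3d and Trbc2 were at 26.65, 11.39 and 10.9 CPM in p52ki replicate 2, against at most 0.7609, 0.3847 and 3.462 CPM in WT. Trac was at 1.667, 9.57 and 2.935 CPM in WT and had no count in p52ki. The part of cells of other types in the results below was not tested. Summed erythroid and platelet markers were 350.28 and 392.87 CPM in p52ki against 57.449 to 250.54 in WT, with 6 of 12 at 0 in both p52ki libraries, and the stromal sum was 105.13 and 55.608 CPM against 25.249 to 55.782, with 11 of 13 at 0. The library numbers in the labels are lower in WT (3, 9 and 12) than in p52ki (21 and 30), so an order of processing that follows them and the genotype cannot be told apart.

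Of the 6227 genes, 872 (14.0%) were called between the genotypes, 272 (4.37%) of them with more and 600 (9.64%) with fewer transcripts in p52ki than in WT. A call is a p under 0.05 from edgeR's quasi-likelihood test after Benjamini-Hochberg adjustment over 15352 genes, of which 16.0% were called, 3.75% higher and 12.2% lower. The libraries of the groups did not overlap for 1950 genes (31.3%), 806 (12.9%) higher and 1144 (18.4%) lower in p52ki, and 821 of the 872 called genes were among them. Over all 15352 genes 24.8% did not overlap, 9.45% higher and 15.4% lower. The median log2 fold change of the 6227 genes was -0.13. Counts of list members below are to be read beside the shares of the 6227 genes given here. The calls use a spread shared by all 17 libraries, with a biological coefficient of variation of 0.507, whereas the 5 GC libraries alone gave 0.984: a fit of these 5 called 0 genes (lowest adjusted p 0.614; 545 genes, or 8.75%, at an unadjusted p under 0.05, and 6.71% of all tested), limma voom with a weight per library called 7, all higher, and DESeq2 called 1406. Every call named below is lost in the fit of the GC libraries alone. With WT replicate 3 as the only WT library, the one that is as sparse as the p52ki libraries, 1534 genes were called, 16.2% of the set higher and 8.46% lower, so that the share that was lower was 34.4%, in place of 68.8%.

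Of 80 called genes named below, 54 were called without each library in turn and 26 were not. Most of the 80 were named for small p-values or wide gaps, so the number kept largely follows from the choice. Of all 872 calls, 534 were kept with the same sign without WT replicate 1, 811 without WT replicate 3 and 579 without WT replicate 4. Without WT replicate 1 the calls of Aurkb, Bid, Bnip3l, Ccnb2, Ccr6, Cd79a, Ebf1, Gpr183, Iglc2, Irf4, Itgal, Nfkbiz, Sdha, Slc16a1, Smarca4 and Traf2 were lost, with adjusted p-values from 0.0506 to 0.127. Without WT replicate 4 those of Aurkb, Bid, Ccnb2, Ccr6, Cd79a, Ebf1, Gpr183, Hmces, Iglc2, Nfkbiz, Otulin and Traf2 were lost, from 0.055 to 0.129. Without p52ki replicate 2 those of Aurkb, Bid, Bnip3l, Ccnb2, Ccr6, Cd79a, Ebf1, Elf1, Gpr183, Hmces, Iglc2, Marcks, Nfkbiz, Otulin, Pola1, Sdha, Tpi1 and Traf2 were lost, from 0.0504 to 0.419. Without p52ki replicate 5 those of Bid, Cd79a, Ifi30, Ighd, Irf4, Itgal, Smarca4, Suz12 and Traf3 were lost, from 0.0583 to 0.216, and without WT replicate 3 that of Itgal (0.0849).

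The genes most clearly higher in p52ki GC cells held a chemokine receptor, transcription factors and the IgA constant region. Apart from Hhex, described for its role in memory B cells, they were ranked by the gap between the nearest libraries of the groups, so their separation is a property of the choice. Ccr7, which guides lymphocytes towards T cell zones (chromosome 11, 99144196 to 99155077, minus strand), was at 10.1, 10.4 and 20.8 CPM in WT and at 176 and 87.8 CPM in p52ki. Its log2 fold change was 3.25 (SE 0.38, adjusted p = 0.000105). Hhex, a homeobox repressor known for memory B cell formation (chromosome 19, 37434810 to 37440731, plus strand), was at 13.2, 11.4 and 19.1 CPM in WT and at 54.3 and 51.7 CPM in p52ki, with a log2 fold change of 1.85 (SE 0.21, adjusted p = 7.37e-05). In both genes the lower p52ki library was well above the highest WT library.

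Runx3, a Runt family transcription factor, was at 8.85, 5.91 and 10.8 CPM in WT and at 50.6 and 50.4 CPM in p52ki. Hes1, a repressor downstream of Notch, was at 4.74, 5.29 and 8.59 CPM in WT and at 85 and 29.2 CPM in p52ki. Serpinb1a, an inhibitor of serine proteases, was at 37.4, 102 and 75.9 CPM in WT and at 405 and 668 CPM in p52ki. Their log2 fold changes were 2.56, 3.19 and 2.91, and Serpinb1a was the one of them also called with a weight per library. The p52ki libraries nearly coincided for Runx3 and differed for Hes1, where replicate 2 was the higher. The tetraspanin Cd9 was at 10.5, 1.02 and 14.9 CPM in WT and at 82.4 and 67.7 CPM in p52ki. S100a10, the partner of annexin A2, was at 7.18, 40.1 and 29.5 CPM in WT and at 184 and 156 CPM in p52ki. The remaining genes of this ranking, Fam43a, Setd7, Wdfy1, Ifi214 and Fxyd5, had log2 fold changes from 2.17 to 3.51. Setd7 and Wdfy1 were at 1.43 and 0.815 CPM in WT replicate 3, well under the other WT libraries. Reads of Ifi214 and Serpinb1a can be split with near-identical neighbours, so their levels are uncertain.

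The genes most clearly lower in p52ki had diverse housekeeping roles and several were almost without counts there. Pggt1b, the beta subunit of an enzyme that attaches geranylgeranyl lipids to proteins, was at 52.2, 21.2 and 47.5 CPM in WT and rested on 1 and 2 counts in the p52ki libraries. Uqcc1, an assembly factor of respiratory complex III, was at 41.7, 15.3 and 55.1 CPM in WT and rested on 1 count in each p52ki library. The ratio of WT to p52ki was 147 for Pggt1b (exact 95% counting interval 50.3 to 716) and 212 for Uqcc1 (58.4 to 1750), intervals that cover counting error only. Nup205, a nuclear pore scaffold protein, was at 64.4, 51.5 and 53.4 CPM in WT and at 3.15 and 2.46 CPM in p52ki, with a log2 fold change of -4.33 (SE 0.48, adjusted p = 6.38e-05). Blmh, the cysteine protease bleomycin hydrolase, was at 102, 66.4 and 85.1 CPM in WT and at 7.27 and 7.22 CPM in p52ki. Nf2 and Ints10 had 1 and 3 counts in p52ki replicate 2 against 13 and 51 in replicate 5. Tmem168, Bpnt1, Cmas, Klhl5, Haus2 and Ipo9 completed the ranking with log2 fold changes from -4.30 to -3.34. The plot of the ranked genes shows all 5 libraries of each.

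**Figure D1:**
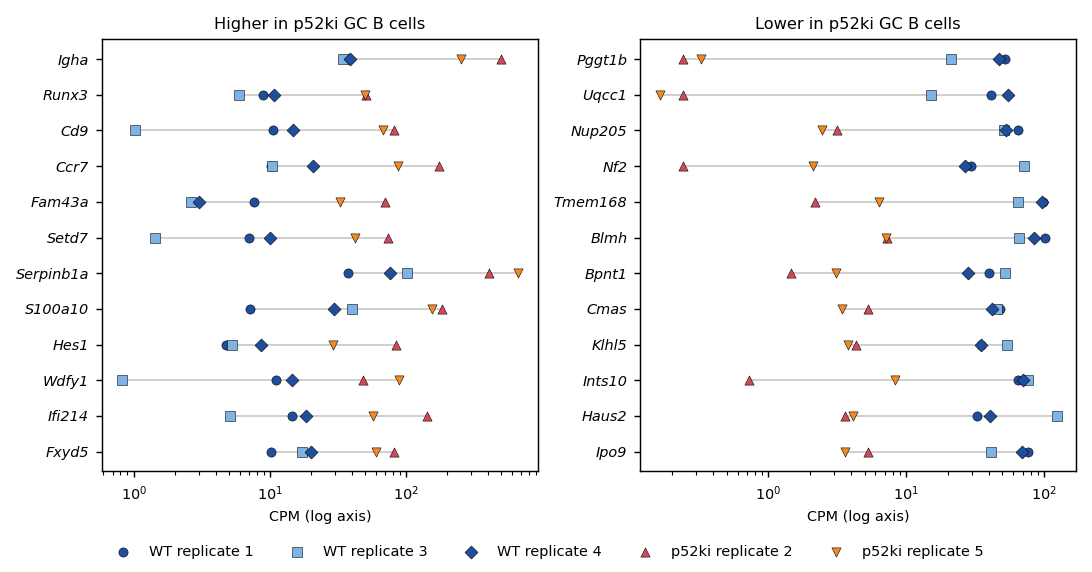
Levels in CPM (log axis) of the 12 genes higher and the 12 genes lower in p52ki GC B cells with the widest gap between the groups; each symbol is 1 library, blue for WT and red or orange for p52ki. Groups do not overlap by the choice of genes; WT replicate 3 is the lowest WT library for Cd9 at 1.02 CPM, and Pggt1b and Uqcc1 lie under 0.5 CPM in both p52ki libraries.

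Several genes of B cells outside the GC were called higher in p52ki. Of 22 naive follicular genes in the set, 8 were called higher and 0 lower, 11 did not overlap and were higher, and the median log2 fold change was 0.71. Over the set 4.37% were called higher, and 12.9% did not overlap and were higher. The summed level of all 24 on the list was 4173.3, 3421.3 and 4236.1 CPM in WT GC libraries and 5448.1 and 5972.5 CPM in p52ki. In WT activated cells this sum was 10320 to 11006 CPM, and in WT naive cells 16510 to 18293 CPM. Klf2, a factor that keeps lymphocytes quiescent and recirculating, was at 33.9, 43.4 and 70 CPM in WT and at 197 and 132 CPM in p52ki (log2 fold change 1.74, SE 0.35, adjusted p = 0.00567). Cr2, the complement receptor CD21, was at 147, 164 and 131 CPM in WT and at 376 and 422 CPM in p52ki. Fcer2a, which encodes CD23, was at 297, 414 and 389 CPM in WT and at 634 and 771 CPM in p52ki. Gpr183, the oxysterol receptor that keeps cells at the follicle edge, was at 26.2, 81.7 and 44.1 CPM in WT and at 138 and 130 CPM in p52ki, and Ighd, the IgD constant region, at 66.2, 126 and 84.9 CPM in WT and at 156 and 322 CPM in p52ki. The log2 fold changes of Fcer2a, Gpr183 and Ighd were 0.94, 1.41 and 1.37, all called. In none of these genes did a p52ki library reach down into the WT range. They were named for the smallest p-values of their lists, so this separation largely follows from the choice. In these bulk samples a larger share of cells of another B cell state and more RNA of these genes per cell cannot be told apart, and the part of such cells in the other results was not tested.

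Of 10 markers of marginal zone and B-1 cells in the set, 5 were called higher and 0 lower, beside 4.37% higher over the set. Their median log2 fold change was 0.98. Cr2 is on both lists. The summed level of all 20 on the marginal zone and B-1 list was 613.35, 714.52 and 584.24 CPM in WT and 2191.3 and 1433 CPM in p52ki. The sum was 3650.9 to 4384.3 CPM in WT activated and 1875.3 to 2050.6 CPM in WT naive cells. It was thus lowest in WT GC cells and does not single out marginal zone or B-1 cells. Plac8 was at 17.6, 129 and 44.3 CPM in WT and at 715 and 300 CPM in p52ki (log2 fold change 3.0, SE 0.59, adjusted p = 0.00489), and it was also called with a weight per library. Marcks, a membrane-bound substrate of protein kinase C, was at 23.6, 4.89 and 23 CPM in WT and at 210 and 46.3 CPM in p52ki. Of 14 regulators of quiescence and memory, 4 were called higher and 0 lower, among them Hhex, Klf2 and Ccr6, a chemokine receptor of memory and follicular cells, at 10.8, 26.7 and 18.4 CPM in WT and 52.3 and 36.9 CPM in p52ki. The p52ki replicate 2 was the higher of the pair for Plac8, Marcks and Ccr6. Against WT replicate 3 alone, where 16.2% of the set was called higher and 8.46% lower, 8 of the naive follicular genes were called higher and 1 lower and 4 of the marginal zone and B-1 markers were called higher, with median log2 fold changes of 0.82 and 1.06. Without p52ki replicate 2, 3 of the marginal zone and B-1 markers were called higher.

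Light zone genes were among those called higher. Of 19 light zone genes, 5 were called higher and 0 lower, beside 4.37% higher over the set, with a median log2 fold change of 0.71. The summed level of all 24 on the list was 2672.8, 2916.5 and 3339.7 CPM in WT and 4131.9 and 4428 CPM in p52ki. The sum was 3357.5 to 4128 CPM in WT activated and 5158.4 to 5728.2 CPM in WT naive cells. It was thus lowest in WT GC cells and does not single out light zone cells. Lmo2, an adaptor of transcription factor complexes, was at 123, 114 and 137 CPM in WT and at 226 and 272 CPM in p52ki (log2 fold change 1.00, SE 0.17, adjusted p = 0.00184). In WT naive cells Lmo2 was at 344 to 358 CPM, and in WT activated cells at 134 to 170 CPM. Irf4, which is induced by antigen receptor and CD40 signals, was at 13, 16.7 and 23.9 CPM in WT and at 29.3 and 40.5 CPM in p52ki (log2 fold change 0.97, SE 0.30, adjusted p = 0.0383). Cd72, a co-receptor of the B cell receptor, was at 199, 203 and 229 CPM in WT and at 307 and 379 CPM in p52ki, with a log2 fold change of 0.71. Fcer2a and Nfkbia belong to the same list, and Fcer2a also to the naive follicular list. Of 19 dark zone genes, 2 were called lower, the mitotic genes Ccnb2 and Aurkb, while 10 did not overlap and were lower and the median log2 fold change was -1.17. The 2 calls are 10.5% of the list, close to the 9.64% of the set, in which 18.4% did not overlap and were lower. None of the list was called lower without WT replicate 1, without WT replicate 4, with a covariate for detected genes (median -0.71) or against WT replicate 3 alone (median -0.51), whereas 7 were without WT replicate 3, 6 without p52ki replicate 5 and 1 without p52ki replicate 2. Without WT replicate 3, 9 light zone genes were called higher.

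How many of the central regulators of the GC were called depended on the libraries used. Bcl6, the repressor required for GC B cells, was at 139, 83.9 and 75 CPM in WT and at 73.6 and 89.4 CPM in p52ki, with overlapping groups and a log2 fold change of -0.28 (SE 0.35, adjusted p = 0.609). Of the 26 GC regulators and surface genes, Ebf1, a factor of B cell identity, was called, at 247, 319 and 296 CPM in WT and 712 and 352 CPM in p52ki (log2 fold change 0.89, adjusted p = 0.0327). Its call was lost without WT replicate 1, WT replicate 4 or p52ki replicate 2. The list had 0 members called lower here, but 7 with DESeq2, 7 without WT replicate 3 and 6 without p52ki replicate 5. Its median was -0.68, and 0.05 against WT replicate 3 alone. Pou2af1, Tcf3 and Gna13, a coactivator, an E protein and a G protein that confines cells to the GC, had log2 fold changes of -0.79, -1.23 and -0.80 and adjusted p-values of 0.0515, 0.054 and 0.0554. Of 22 plasma cell and secretion genes Irf4 was called; Xbp1, which drives the secretory programme, was at 398, 594 and 591 CPM in WT and at 252 and 316 CPM in p52ki with an adjusted p of 0.0738. Of the 13 B cell defining markers Cd79a and Ebf1 were called higher and none lower, and 0 were called without WT replicate 1, WT replicate 4 or p52ki replicate 2. Without WT replicate 3, 5 were called higher and 1 lower.

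**Figure D2:**
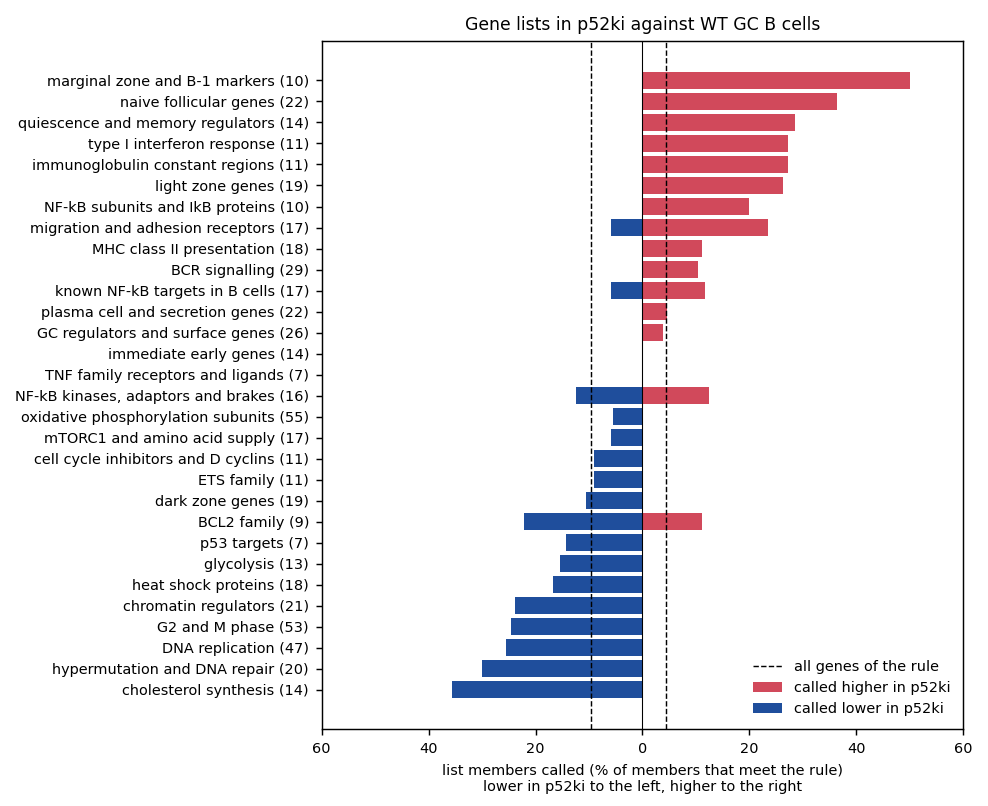
Share of the members of each gene list, among those in the 6227 genes (number in brackets), that was called higher (red, right) or lower (blue, left) in p52ki GC B cells; dashed lines mark 4.37% higher and 9.64% lower over all 6227 genes. Marginal zone, B-1 and naive follicular lists extend farthest to the right, and cholesterol synthesis, hypermutation, DNA replication and G2 and M phase lists to the left.

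None of the 5 genes that encode NF-kB subunits was called in GC cells, and which passed with other settings varied, also among settings that keep all 5 libraries. Nfkb2, from which p52 is made (chromosome 19, 46304320 to 46312385, plus strand), was at 63.2, 41.7 and 58.4 CPM in WT and at 120 and 74 CPM in p52ki. The groups did not overlap, and the log2 fold change of 0.83 (SE 0.30) had an adjusted p of 0.073; it was called in 5 of 15 settings. Nfkb1, the p105 and p50 gene, overlapped at 95.9, 116 and 76 CPM in WT and 83.1 and 102 CPM in p52ki, with a log2 fold change of -0.05 (SE 0.29). Rel was at 86.2, 21.4 and 77.9 CPM in WT and at 115 and 109 CPM in p52ki, and its log2 fold change of 0.85 had an adjusted p of 0.148. Rela was at 115, 114 and 87 CPM in WT and at 30 and 72.8 CPM in p52ki, with a log2 fold change of -1.03 and an adjusted p of 0.0515. Relb, the partner of p52, had no count in WT replicate 3 and so lies outside the set, with 28.3 and 26.2 CPM in WT replicates 1 and 4 and 15.7 and 56.6 CPM in p52ki.

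Upstream of the subunits, 0 of 7 receptors and ligands of the TNF family in the set were called. Of 16 kinases, adaptors and brakes, 2 were called higher and 2 lower. Traf3, the brake that keeps the non-canonical kinase NIK degraded, was at 18.7, 3.87 and 15.8 CPM in WT and at 31.7 and 67.9 CPM in p52ki (log2 fold change 1.95, SE 0.53, adjusted p = 0.0237). Tab2, which couples ubiquitin chains to the kinase TAK1, was at 40.1, 30.5 and 48.5 CPM in WT and at 148 and 122 CPM in p52ki. Traf2, an adaptor that works with TRAF3, was at 79.4, 43.4 and 72.7 CPM in WT and at 30.8 and 31.3 CPM in p52ki (log2 fold change -1.07). Otulin, which removes linear ubiquitin chains, was at 296, 246 and 345 CPM in WT and at 144 and 179 CPM in p52ki (log2 fold change -0.87). These 2 lower values passed the test in 6 and 8 of 15 settings, and not without WT replicate 4 or p52ki replicate 2. Without p52ki replicate 2, 6 genes of the list were called lower and 2 higher, and against WT replicate 3 alone 0 lower and 4 higher.

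Among the IkB proteins, Nfkbia and Nfkbiz were called higher. Nfkbia encodes IkB-alpha, which holds NF-kB in the cytoplasm and is itself a classical NF-kB target (chromosome 12, 55489410 to 55492647, minus strand). It was at 140, 233 and 241 CPM in WT and at 592 and 472 CPM in p52ki, with a log2 fold change of 1.38 (SE 0.24, adjusted p = 0.00192). Nfkbiz, a nuclear member of the family, was at 11.8, 22.6 and 12.5 CPM in WT and at 55.2 and 29.4 CPM in p52ki. Nfkbia was called in 13 of 15 settings and Nfkbiz in 6, not without WT replicate 1, WT replicate 4 or p52ki replicate 2. The subunit and IkB list summed to 714.78, 711.67 and 775.98 CPM in WT and 1335.7 and 1103.5 CPM in p52ki. In WT activated cells this sum was 1091.4 to 1245.6 CPM and in WT naive cells 1356.6 to 1446.9 CPM, so it was lowest in WT GC cells. Of 17 known NF-kB targets, Nfkbia and Irf4 were called higher, and Icam1, an adhesion molecule, lower: it was at 109, 81.5 and 87.3 CPM in WT and at 48.2 and 39.9 CPM in p52ki, with a log2 fold change of -1.07 (SE 0.24, adjusted p = 0.00983).

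Promoter letters are shown for Nfkbia, Hhex and Hjurp, genes called in opposite directions, because p52 binds kB sites. The sequences lie upstream of the RefSeq start on GRCm38.p6 at chr12:55492648-55492897 (minus strand), chr19:37434591-37434809 (plus strand) and chr1:88277634-88277829 (minus strand), end where the gene begins in either annotation and read 5′ to 3′ along the gene, with capitals for matches to the kB letters, GGG, then any 5 bases, then CC, on either strand.
Nfkbia: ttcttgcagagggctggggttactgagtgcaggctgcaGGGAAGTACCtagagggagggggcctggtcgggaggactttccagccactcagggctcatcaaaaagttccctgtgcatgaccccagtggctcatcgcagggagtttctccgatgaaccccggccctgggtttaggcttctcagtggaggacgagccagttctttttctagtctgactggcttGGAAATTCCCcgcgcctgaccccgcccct
Hhex: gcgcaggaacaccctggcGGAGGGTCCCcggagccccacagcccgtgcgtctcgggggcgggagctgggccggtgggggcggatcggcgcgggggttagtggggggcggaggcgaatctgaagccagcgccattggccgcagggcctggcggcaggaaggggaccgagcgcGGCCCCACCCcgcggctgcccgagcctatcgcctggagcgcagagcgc
Hjurp: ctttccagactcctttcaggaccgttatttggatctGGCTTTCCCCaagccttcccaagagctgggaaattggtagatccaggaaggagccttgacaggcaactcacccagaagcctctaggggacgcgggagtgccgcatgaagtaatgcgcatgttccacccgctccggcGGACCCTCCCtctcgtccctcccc
Each holds 2 matches, Hjurp included, which was lower in p52ki. In the 250 bases before the start, a kB match was found in 57.9% of 195 genes called higher, 63.6% of 473 called lower and 61.9% of 4056 not called, of the 4724 genes in the set with a promoter entry, and in 45.8% of all 32851 promoters. The ETS letters CGGAAG, on either strand, were found in 25.1%, 33.8% and 31.4% of these gene groups and in 13.6% of all promoters. The kB letters are loose, and a match is a description of the sequence, not a site.

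Ets1 was not called, at 437, 221 and 301 CPM in WT and 220 and 389 CPM in p52ki, with a log2 fold change of -0.07 (SE 0.29, adjusted p = 0.897). Its lowest values were those of WT replicate 3 and p52ki replicate 2. Of 11 ETS family genes in the set, Elf1, a factor of lymphocyte gene regulation, was called: it was at 341, 298 and 314 CPM in WT and at 107 and 162 CPM in p52ki, with a log2 fold change of -1.24 (SE 0.26, adjusted p = 0.00704). Elk3, a member that can repress transcription, did not overlap but was not called, with a log2 fold change of 0.42. The plot of regulators sets these genes side by side.

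**Figure D3:**
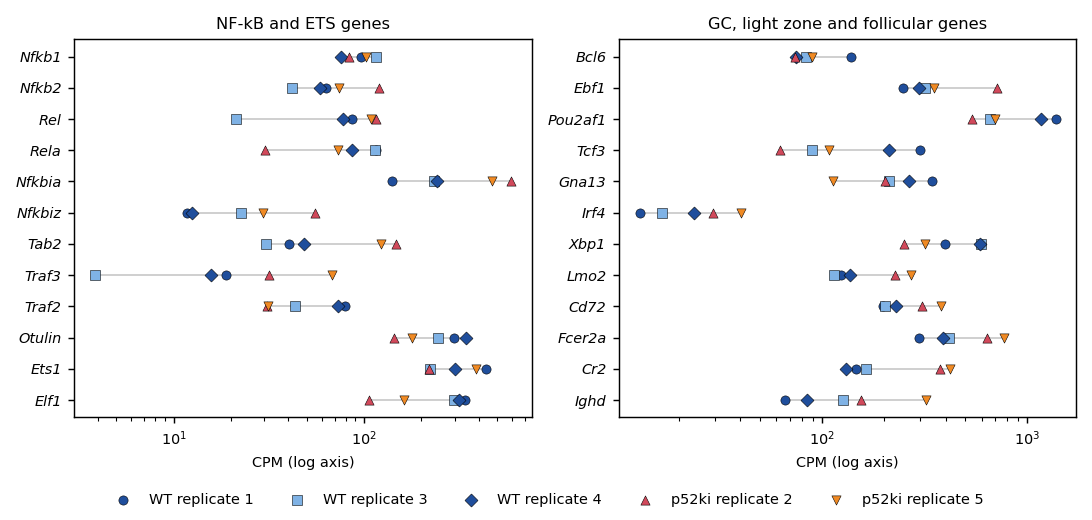
Levels in CPM (log axis) of NF-kB and ETS genes (left) and of GC, light zone and follicular genes (right) in each GC library; blue symbols are WT and red or orange ones p52ki. Nfkb1, Ets1 and Bcl6 overlap, whereas Nfkbia, Tab2, Lmo2, Fcer2a and Cr2 are higher in both p52ki libraries and Elf1 and Otulin lower.

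Many genes of cell division were called lower in p52ki, and their sums also differed between the WT libraries. The 67 G2 and M phase genes summed to 13907, 8709.8 and 13972 CPM in WT replicates 1, 3 and 4 and to 4869.8 and 7288.8 CPM in p52ki, against 1479.1 to 1955.3 CPM in WT activated cells. The 55 DNA replication genes summed to 11157, 6968.2 and 11657 CPM in WT and to 4138 and 5993.2 CPM in p52ki. Both p52ki libraries were thus under WT replicate 3, the sparse WT library, and above the activated cells. Of 53 G2 and M phase genes in the set 13 were called lower and 0 higher, with a median log2 fold change of -1.15, and of 47 DNA replication genes 12 were called lower and 0 higher, with a median of -0.96. Over the set 9.64% were called lower and 4.37% higher. Against WT replicate 3 alone the counts were 6 lower and 0 higher for G2 and M phase (median -0.51) and 4 lower and 2 higher for DNA replication (median -0.34), beside 8.46% lower and 16.2% higher over the set. Without p52ki replicate 2 they were 7 and 3 lower, without WT replicate 3, 24 and 22 lower, and without p52ki replicate 5, 22 and 23 lower. Without WT replicate 1 or WT replicate 4 they were 8 and 8 lower.

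Among the mitotic genes, Hjurp, the chaperone that loads the centromeric histone CENP-A (chromosome 1, 88262471 to 88277633, minus strand), was at 339, 153 and 175 CPM in WT and at 34.2 and 34.8 CPM in p52ki. Its log2 fold change was -2.69 (SE 0.36, adjusted p = 0.000271). Kif23, a kinesin of cytokinesis, was at 238, 175 and 218 CPM in WT and at 64.2 and 61.2 CPM in p52ki (log2 fold change -1.75, SE 0.32, adjusted p = 0.00282). Kif20b, another kinesin, was at 143, 31 and 124 CPM in WT and at 7.03 and 14.8 CPM in p52ki, so that WT replicate 3 lay nearer to the p52ki libraries. The kinetochore protein Cenpf was at 164, 94.5 and 121 CPM in WT and at 26.4 and 12.3 CPM in p52ki, and the log2 fold changes of these 2 genes were -3.18 and -2.71. Mki67, the common marker of dividing cells, was at 470, 338 and 357 CPM in WT and at 222 and 123 CPM in p52ki; the groups did not overlap, and its log2 fold change of -1.17 (SE 0.47) had an adjusted p of 0.0988.

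Of the replication genes, Rrm1, the large subunit of ribonucleotide reductase, was at 457, 82.7 and 458 CPM in WT and at 49.4 and 48.2 CPM in p52ki. WT replicate 3 lay nearer to the p52ki libraries than to the other WT libraries for this gene. Fen1, the flap endonuclease, was at 234, 195 and 207 CPM in WT and at 78.5 and 65.9 CPM in p52ki, with a log2 fold change of -1.56 (SE 0.32, adjusted p = 0.00646). Pold2, a subunit of DNA polymerase delta, was at 39.2, 57 and 37.3 CPM in WT and at 6.3 and 12 CPM in p52ki, and Pola1, the catalytic subunit of DNA polymerase alpha, at 201, 114 and 159 CPM in WT and at 30.8 and 52.3 CPM in p52ki (log2 fold change -1.93). Rbl1, the pocket protein p107 that binds E2F factors, was at 125, 163 and 128 CPM in WT and at 59.8 and 47.2 CPM in p52ki (log2 fold change -1.37). Myc, which is induced in selected light zone cells, was not called: it was at 54.1, 43.2 and 71.1 CPM in WT, at 258 CPM in p52ki replicate 2 and at 53 CPM in replicate 5.

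Of 20 genes of hypermutation and DNA repair, 6 were called lower and 0 higher, beside 9.64% lower over the set. Their median log2 fold change was -0.99. Hmces, which shields abasic sites in single-stranded DNA, was at 861, 782 and 989 CPM in WT and at 167 and 446 CPM in p52ki (log2 fold change -1.52, SE 0.42, adjusted p = 0.0251). Neil3, a DNA glycosylase, was at 54.9, 13.6 and 50.3 CPM in WT and at 2.18 and 2.13 CPM in p52ki (log2 fold change -4.19). Fanci, of the Fanconi anaemia pathway, was at 50.3, 63.1 and 38.6 CPM in WT and at 17.9 and 15.9 CPM in p52ki (log2 fold change -1.58). For Hmces, p52ki replicate 2 was the lower of the pair. Of these 20 genes 2 were called lower without WT replicate 4 and 2 without p52ki replicate 2. The median was -0.14 with the covariate for detected genes and -0.21 against WT replicate 3 alone, where 2 were called lower and 3 higher.

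Of 21 chromatin regulators, 5 were called lower and 0 higher, beside 9.64% lower over the set. Their median log2 fold change was -0.63, and 0.13 against WT replicate 3 alone. Dnmt1, the maintenance DNA methyltransferase, was at 241, 133 and 135 CPM in WT and at 35.6 and 26.7 CPM in p52ki (log2 fold change -2.44, SE 0.43, adjusted p = 0.00223). Suz12, a subunit of Polycomb complex PRC2, was at 166, 210 and 135 CPM in WT and at 81.9 and 40.2 CPM in p52ki. Smarca4, the BRG1 ATPase, was at 376, 151 and 248 CPM in WT and at 103 and 60.2 CPM in p52ki (log2 fold change -1.66). Without WT replicate 1, 3 members of the list were called lower. The deacetylase Hdac2 was at 7.75 CPM in p52ki replicate 2 and 56.1 CPM in replicate 5, against 117 to 148 CPM in WT.

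The use of antibody classes differed between the libraries. Of the counts on the heavy chain constant regions, Ighg1 took 41.8%, 37.4% and 46.3% in WT and 13.3% and 10.8% in p52ki, that is 41.8% ± 4.43 (SD, n = 3) and 12.1% ± 1.83 (SD, n = 2). Ighm took 51.2%, 44.3% and 43% in WT and 60.7% and 73.7% in p52ki. Igha took 0.468%, 0.244% and 0.323% in WT and 4.54% and 2.27% in p52ki. The groups did not overlap for any of these classes, and the exact two-sided permutation test gave p = 0.2 for each, the smallest p that 2 against 3 libraries allow. Ighg2b and Ighg2c shares overlapped (exact permutation p = 0.4 and 0.6). The 95% Wilson intervals of these shares reached at most 0.448 percentage points to either side and cover counting error only. As levels, Igha was at 37.6, 34.6 and 38.9 CPM in WT and at 503 and 252 CPM in p52ki (log2 fold change 3.35, SE 0.60, adjusted p = 0.00261), and Ighg1 had a log2 fold change of -1.83 with an adjusted p of 0.0893. In activated cells Ighg1 was at 1176 to 8407 CPM in WT and at 99.3 to 306.8 CPM in p52ki, with a log2 fold change of -4.41 (adjusted p = 0.0541). Iglc2, a lambda light chain constant region, was called higher, at 618, 1453 and 1058 CPM in WT and at 2548 and 2143 CPM in p52ki (log2 fold change 1.17). Reads shared between constant regions can be split or lost, so these values are uncertain.

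Receptors and antigen presentation were mixed. Of 17 migration and adhesion receptors in the set, 4 were called higher, among them Ccr7, Ccr6 and Gpr183, and 1 lower, the integrin chain Itgal, at 68.6, 83.7 and 46.1 CPM in WT and at 37.5 and 14.1 CPM in p52ki (log2 fold change -1.36). Without WT replicate 1 or WT replicate 4, 2 were called higher. Of 18 genes of MHC class II presentation, Ctss, a protease that trims the invariant chain, and Ifi30, a lysosomal thiol reductase, were called higher. Ctss was at 258, 312 and 337 CPM in WT and at 569 and 719 CPM in p52ki (log2 fold change 1.09, SE 0.21, adjusted p = 0.00346). H2-Ob, which restrains peptide loading in B cells, did not overlap and had an adjusted p of 0.053. Without WT replicate 3, 7 genes of the list were called higher and 1 lower. Of 29 genes of B cell receptor signalling, Cd79a, Cd72 and Cr2 were called higher and none lower, while the list's median was -0.34, and 0.49 against WT replicate 3 alone.

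Among genes of cell death and stress, Bax, an effector of mitochondrial apoptosis, was at 63.2, 53.1 and 50.7 CPM in WT and at 19.6 and 27.2 CPM in p52ki (log2 fold change -1.25, SE 0.27, adjusted p = 0.0077). Bid, which activates it, was at 220, 195 and 262 CPM in WT and at 146 and 137 CPM in p52ki. Bnip3l, a mitophagy receptor, was at 77.2, 85.3 and 120 CPM in WT and at 179 and 132 CPM in p52ki. Their log2 fold changes were -0.68 and 0.72, and the other 6 BCL2 family genes in the set were not called. Of 18 heat shock genes, 3 were called lower, among them Hsf1, the master factor of the heat shock response, at 59.4, 80.2 and 53.4 CPM in WT and 23.3 and 29.2 CPM in p52ki. Of 11 type I interferon response genes, 3 were called higher and 0 lower, with a median log2 fold change of 0.40. Trim30a was at 48.5, 47.9 and 58.4 CPM in WT and at 94 and 139 CPM in p52ki. Irf9, a transcription factor of the interferon response, was at 36.4 and 44.9 CPM in WT replicates 1 and 4, at 1.83 CPM in WT replicate 3 and at 131 and 141 CPM in p52ki. None of the 14 immediate early genes in the set was called.

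Of the 99 members of 4 metabolism lists in the set 11 (11.1%) were called lower and 0 higher, beside 9.64% lower over the set. Of 14 genes of cholesterol synthesis, 5 were called lower and 0 higher, with a median log2 fold change of -1.05 that was -0.02 against WT replicate 3 alone. Without WT replicate 1 and without WT replicate 4, 2 of them were called lower, without p52ki replicate 2, 3, and without WT replicate 3, 8. Cyp51, the lanosterol demethylase, was at 229, 121 and 167 CPM in WT and at 35.9 and 72.7 CPM in p52ki (log2 fold change -1.67, SE 0.35, adjusted p = 0.00724). Insig1, the sterol-regulated anchor of SCAP, was at 52.2, 40.3 and 38.3 CPM in WT and at 12.4 and 6.4 CPM in p52ki. Of 13 glycolysis genes, 2 were called lower. Tpi1, a triose phosphate isomerase, was at 226, 227 and 243 CPM in WT and at 73.2 and 137 CPM in p52ki, and the lactate transporter Slc16a1 at 54.6, 23.2 and 53.4 CPM in WT and at 11.6 and 10.5 CPM in p52ki. Of 55 subunits of oxidative phosphorylation 3 (5.45%) were called lower, while the list's median was 0.20, and without WT replicate 3, 4 were called lower and 7 higher. Ndufs1 of complex I was at 148, 84.9 and 157 CPM in WT and at 37.1 and 24.9 CPM in p52ki (log2 fold change -2.07), and Sdha of complex II at 187, 137 and 127 CPM in WT and at 51.1 and 77.9 CPM in p52ki (log2 fold change -1.22).

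Comparison with activated B cells of the same genotypes shows where the GC values lie. In activated cells 2 of the 6227 genes (0.0321%; 0.0130% of all tested) were called between p52ki and WT, and in naive cells 0. These counts use the spread shared by all 17 libraries, GC libraries included, and the spread of activated or naive cells alone was not estimated. They do not show that the genotypes are alike outside the GC. Wdfy1 was not called in either stage, though its groups did not overlap. In naive cells it was at 13.42 to 22.856 CPM in WT and 41.435 to 44.579 CPM in p52ki. In activated cells it was at 12.823 to 18.043 CPM in WT and 41.179 to 50.679 CPM in p52ki. The difference of the genotype effect between GC and activated cells passed the test for 278 genes (4.46%; 5.95% of all tested). Ccr7 was at 248.8 to 396.6 CPM in WT activated cells and at 302 to 598 CPM in p52ki activated cells, so that p52ki GC cells lay between WT GC and activated cells. Hhex was at 214 to 219 CPM in WT activated cells and at 204 to 260 CPM in p52ki activated cells. Cd9 was at 155 to 200 CPM in WT activated cells and at 94.4 to 139 CPM in p52ki activated cells. Hjurp was at 38.5 to 60.9 CPM in WT activated cells, above the 34.2 and 34.8 CPM of the p52ki GC cells, and Rrm1 at 57.4 to 91.2 CPM, whereas Mki67 was at 20.5 to 25.9 CPM, far under its level in both p52ki GC libraries. Igha was at 83.1, 92.7 and 474 CPM in WT activated cells and at 429 to 501 CPM in p52ki activated cells.

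**Figure D4:**
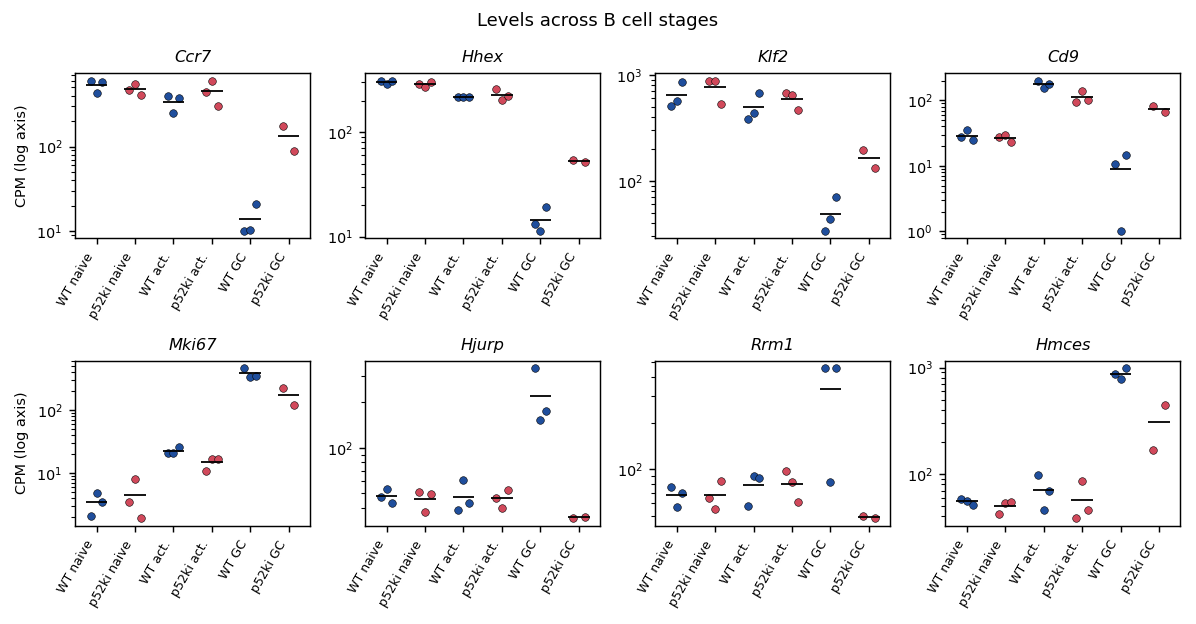
Levels in CPM (log axis) in all 17 libraries by stage and genotype, 1 point per library, blue for WT and red for p52ki, with a bar at the group mean. By group means, Ccr7, Hhex, Klf2 and Cd9 are lowest in WT GC B cells and higher in p52ki GC B cells, and Mki67, Hjurp, Rrm1 and Hmces are highest in WT GC B cells and lower in p52ki GC B cells; for Rrm1, WT GC replicate 3 at 82.7 CPM lies among the activated libraries.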

How the data were processed

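RNA of sorted spleen B cells was made into full-length cDNA by a SMART-Seq protocol, per the labels' protocols. The deposited values are whole-number counts per gene, which the authors made on GRCm38 with featureCounts (Subread 1.6.2), HISAT2 2.1.0 and SAMtools 1.8, per the submitters' processing notes. For strand setting, sorting gates and molecular identifiers the answer is not given in the sources used here. All 55536 identifiers matched GENCODE mouse release 21. Groups came from genotype and tissue in the labels; no label says that replicates were separate animals, so p-values measure only the spread among these libraries, which may be technical.

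Genes passing edgeR's filterByExpr (15352) received TMM factors and entered the quasi-likelihood test of edgeR 4.0.16 (glmQLFit, robust, and glmQLFTest, under R 4.3.3), with 1 coefficient per group over all 17 libraries; every adjusted p in the report is from this test unless another is named. CPM values are TMM-scaled, except the mean CPM that defines the set and its edge, which is scaled to library totals without TMM factors. The SE is the log2 fold change over the root of the F statistic. The set of genes needed a mean of 20 CPM and 1 count in all 5 GC libraries, which a gene high in 1 group can meet through that group. Named genes were Nfkb1, Nfkb2, Rel, Rela, Relb, Ets1, Bcl6, Irf4, Mki67, Ccr7 and Hhex, the called genes with the widest gap between groups, at most 12 in each direction (variable segments, predicted genes and pseudogenes left out), and up to 4 genes with the smallest p per list. Btla, Cd36, Il9r and other called list members are counted without values, and some named items are not reported here; Itgal was named after its value was seen, and so were the heavy chain classes. The genes, lists and tests were chosen with earlier results of these data known. Alternatives used limma 3.58.1 and DESeq2 1.42.0. The procedure was tested on simulated counts in which the GC libraries had the spread estimated over all 17 libraries. The simulation cannot speak for the wider spread of the real GC libraries.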

Additional observations from a re-analysis of the deposited data

Results flagged for a closer look

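For 37 of the 97 named genes tested, the genotype effect in GC cells differed from that in activated cells (edgeR's quasi-likelihood test of the difference, Benjamini-Hochberg adjusted p from 3.69e-05 to 0.0482). Over the whole set the difference was called for 278 of 6227 genes (4.46%); most of the named genes were chosen for their difference in GC cells, so their share says nothing of its own. The values are the log2 fold change of p52ki over WT in GC cells minus that in activated cells. Among genes higher in p52ki GC cells the difference was 3.74 for Cd9, 3.31 for Plac8, 3.25 for Fam43a, 3.18 for Hes1, 3.06 for Ifi214, 2.85 for both Ccr7 and S100a10, 2.81 for Serpinb1a, 2.8 for Fxyd5 and 2.64 for Marcks. It was 2.04 for Runx3, 1.78 for Hhex, 1.04 for Ctss and 0.849 for Lmo2. Among genes lower in p52ki GC cells it was -7.47 for Uqcc1, -7.14 for Pggt1b, -4.84 for Nf2, -4.56 for Haus2, -4.49 for Nup205, -3.92 for Ipo9, -3.82 for Ints10, -3.81 for Tmem168, -3.71 for Bpnt1, -3.53 for Neil3, -3.51 for Blmh, -3.31 for Cmas and -3.24 for Klhl5. For the genes of replication, mitosis and repair it was -2.8 for Rrm1, -2.79 for Kif20b, -2.65 for Hjurp, -2.5 for Pold2, -1.97 for Fanci and -1.51 for Fen1. For Dnmt1 it was -2.19, for Ndufs1 -2.08, for Bax -1.66 and for Elf1 -1.42. In activated cells the genotype effect of Cd9 was -0.68, opposite in sign to that in GC cells. The test uses the spread shared by all 17 libraries, which is smaller than that of the GC libraries. The GC groups of 3 and 2 libraries are too small to look for single outlying samples.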

How the results depend on the processing

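The count of called genes was 872, and 879 with RLE scaling (61.3% lower, in place of 68.8%), 746 without the filter on low counts and 825 without immunoglobulin genes (63.2% lower). It was 1406 with DESeq2 (61.6% lower), 7 with limma voom and a weight per library, 1368 with a covariate for detected genes (39.8% lower), 0 with the 5 GC libraries alone and 1534 against WT replicate 3 alone, and 560 and 292 with a mean of at least 50 or 100 CPM. Leaving out 1 library gave 553 (without WT replicate 1) to 1842 (without p52ki replicate 5), with 1711 without WT replicate 3 and 620 without WT replicate 4; a group left with 1 library is assumed to vary like the other groups. The median log2 fold change moved from -0.13 to 0.05 with the covariate and to 0.08 against WT replicate 3 alone.

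The called members of all lists numbered 90, and 1 with a weight per library, 0 with the GC libraries alone, 53 at 100 CPM and 60 to 169 without 1 library. Of the fixed and ranked genes 26 were called, 1 with a weight per library, 0 with the GC libraries alone and 25 to 26 without 1 WT library. The ranked genes were taken from called genes with a wide gap, so these calls and their number without 1 library largely follow from the choice. The difference from activated cells was called for 278 genes, 650 with DESeq2, 9 with a weight per library, 775 with the covariate and 157 to 1274 without 1 library. Groups did not overlap for 1950 genes, 1208 at 50 CPM, 649 at 100 CPM and 2228 to 4010 without 1 library.

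Sign changes were found in 5 named genes that were not called. Of these, Myc was called with DESeq2 (1.59, adjusted p = 0.0354) and without p52ki replicate 5 (2.29, adjusted p = 0.00278), and Relb with the covariate (5.12, adjusted p = 0.000935) and against WT replicate 3 alone (adjusted p = 0.000101), where it has no count and the fitted fold is no bound. The log2 fold change of Nfkb1 was 0.0032 with RLE scaling, 0.0052 with DESeq2, 0.197 with a weight per library, 0.0346 with the replicate block, 0.0106 without immunoglobulin genes, 0.0031 with the GC libraries alone, 0.228 without WT replicate 3 and 0.137 without p52ki replicate 2, and without 1 library it ran from -0.193 to 0.228. That of Ets1 was 0.0038 with RLE scaling, 0.0039 with DESeq2, 0.0163 without immunoglobulin genes, 0.402 with the covariate, 0.0073 with the GC libraries alone, 0.462 against WT replicate 3 alone, 0.222 without WT replicate 1 and 0.352 without p52ki replicate 2, and without 1 library it ran from -0.447 to 0.352. Without 1 library Bcl6 ran from -0.450 to 0.0378 (without WT replicate 1), Myc from -0.0171 (without p52ki replicate 2) to 2.29 and Relb from -0.0996 (without p52ki replicate 5) to 1.72. The medians of the ETS and BCL2 family lists also changed sign with RLE scaling, to 0.0038 and 0.0030.

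No paired analysis was possible because the GC groups share no replicate number, as far as p52ki against WT GC cells goes. With genotype and replicate number as a random effect over all stages (replicate block), limma voom called 761 genes, and 197 for the difference from activated cells. The cause of these changes was not tested. Thinned to 4067281 counts each, the groups did not overlap for 1934 genes.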
